A study of Mus musculus with 12 samples.

Results

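Esm1 and 9 other genes of the endothelium, the cell layer that lines blood vessels, were followed in mouse vessels through 7 days of angiotensin II infusion. The others were the peptide ligand Apln and its receptor Aplnr, the ligand Angpt2 and its receptor Tek, the VEGF receptor Kdr, the surface and storage proteins Plvap and Vwf, and the junction proteins Pecam1 and Cdh5. They were chosen by name, partly for the early Esm1 signal and for the levels of the rest in these same arrays, so their own values are given as a description, and nothing is inferred from which of them passed a threshold. Each of the 10 had 1 transcript cluster with a single gene symbol, of 30701 genes with such a cluster. Of the 10, 9 were among the 22066 genes that passed a filter on dim signals (at least 3 of 12 arrays at a log2 signal of 5.25 or more), and Apln did not.

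The day 0 group was untreated, and the groups of days 1, 3 and 7 had received angiotensin II, a peptide hormone that narrows arteries, for that long from an osmotic pump, at a dose of 1500 ng/kg/min. All mice were C57BL/6 males, 8 to 10 weeks old. Each group had 3 arrays of vessel RNA, which the labels call biological replicates without naming the vessel. The labels mention no vehicle pump at day 0, so pump surgery and angiotensin II cannot be told apart. In RNA of whole vessels, fewer endothelial cells and less of a transcript per cell cannot be told apart.

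Endothelial cells that begin to sprout are instructed by VEGF through its receptor Kdr, and leading tip cells of the sprout secrete Esm1 (endocan), a small dermatan sulfate proteoglycan. Angpt1 holds vessels quiescent through the receptor Tek, and Angpt2, kept in the same endothelial storage granules as Vwf, can oppose it. Apelin, the product of Apln, and its receptor Aplnr act in growing vessels, while Pecam1 and Cdh5 (VE-cadherin) are used as general markers of endothelial identity.

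RefSeq promoter windows (build GRCm38.p6, 250 bases before to 50 bases after the gene start) were matched by symbol for 4 of the 10 genes: Esm1, Apln, Kdr and Tek. Those of Esm1, which had the largest change of the 10, and of Kdr, whose groups overlapped at every time, are shown to set the 2 patterns beside their sequence. Capitals mark GGAA, the core recognised by ETS factors such as Erg, on either strand (TTCC on the strand shown). The Esm1 window is chr13:113209409-113209708 on the plus strand, and the Kdr window is chr5:75978406-75978705 on the minus strand.
Esm1: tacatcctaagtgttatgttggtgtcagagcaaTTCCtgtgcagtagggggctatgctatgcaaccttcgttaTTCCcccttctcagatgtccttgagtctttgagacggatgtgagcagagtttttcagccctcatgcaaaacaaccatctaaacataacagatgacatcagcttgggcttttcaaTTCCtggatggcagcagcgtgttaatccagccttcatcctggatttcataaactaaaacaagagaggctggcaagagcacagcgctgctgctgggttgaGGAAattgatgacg
Kdr: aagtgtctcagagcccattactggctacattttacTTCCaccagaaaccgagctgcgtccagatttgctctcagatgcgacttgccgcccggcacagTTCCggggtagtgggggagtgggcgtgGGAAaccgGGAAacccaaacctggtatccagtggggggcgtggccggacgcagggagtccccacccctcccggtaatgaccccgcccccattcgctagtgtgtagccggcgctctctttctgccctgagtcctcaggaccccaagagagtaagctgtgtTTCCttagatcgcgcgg
The Esm1 window held 4 such cores, Kdr held 5, Apln 4 and Tek 2. Across 32851 mouse promoter windows of the same length 96.0% held at least 1, with a median of 3, so the count does not set these genes apart. None of the 4 windows held ACGTG (the hypoxia response core, in 19.6% of all windows), TGANTCA (AP-1, in 7.8%) or TATAAA (the TATA box, in 13.6%), each sought on both strands. The GC content was 46.3% in the Esm1 window, 60.7% in Kdr, 64.0% in Apln and 52.0% in Tek. These matches describe the letters of the windows and are not evidence of binding.

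Esm1 was high at days 1 and 3 and had come most of the way down by day 7. On the log2 signal scale it measured 6.10, 6.60 and 5.74 on the 3 day 0 arrays, 10.34, 11.49 and 10.06 at day 1, 10.07, 10.09 and 10.88 at day 3, and 7.24, 7.48 and 7.50 at day 7. Every treated array lay above every day 0 array, and every day 7 array lay below every array of days 1 and 3. The mean was 6.15 ± 0.43 on day 0, then 10.63 ± 0.76 (day 1), 10.35 ± 0.46 (day 3) and 7.41 ± 0.14 (day 7), with the SD over 3 arrays. The order from high to low was therefore day 1, day 3, day 7 and day 0, in which the neighbours day 1 and day 3 did not differ beyond their spread.

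The Esm1 change from day 0 was 4.48 ± 0.38 log2 units at day 1 (22.3-fold), 4.20 ± 0.38 at day 3 (18.4-fold) and 1.26 ± 0.38 at day 7 (2.40-fold), where the error is the SE of the fit over 12 arrays. Leaving out any 1 array gave 4.05 to 4.77 at day 1, 3.93 to 4.43 at day 3 and 1.06 to 1.49 at day 7. At day 0, Esm1 lay close to the median of the negative control features, which averaged 5.99, so a fold computed from that level may be compressed. These controls spread widely: their 95th percentile averaged 9.76 at day 0 and 10.30 at day 7. Esm1 exceeded that percentile on 5 of the 12 arrays, all of days 1 and 3, and Pecam1 and Cdh5 on 11 each. Aplnr, Angpt2, Kdr, Tek, Plvap and Vwf exceeded it on 0, so their signals lay within the range of negative controls.

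**Figure D1:**
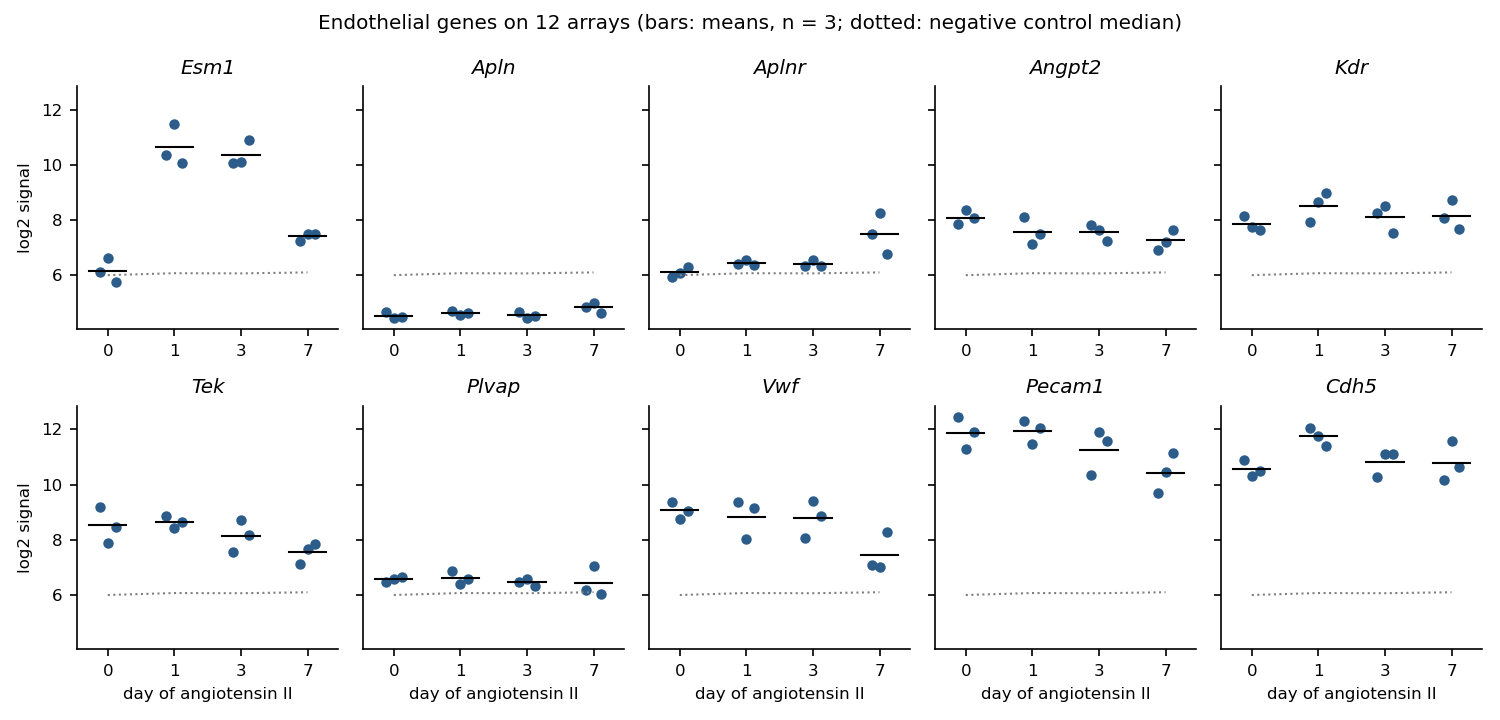
Log2 signal (vertical axis) of each of the 10 genes on the 12 arrays by day of angiotensin II (horizontal axis). Points are arrays, bars are group means (n = 3), and the dotted line is the mean negative control median of each day. Esm1 stands at 10.06 to 11.49 on the day 1 arrays, against 5.74 to 6.60 at day 0, while Apln stays under the dotted line throughout.

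Of the apelin pair, only the receptor lay above the negative control median, on all arrays but 1, and on none did it exceed the 95th percentile of these controls. Aplnr, the G protein-coupled apelin receptor, was highest at day 7, when Esm1 had come down: it measured 5.93, 6.06 and 6.28 at day 0, 6.38, 6.53 and 6.36 at day 1, 6.33, 6.53 and 6.30 at day 3, and 7.47, 8.24 and 6.76 at day 7. The 3 day 7 arrays lay above all others but were spread over more than 1 log2 unit. The Aplnr change from day 0 was 0.33 ± 0.30 at day 1, 0.30 ± 0.30 at day 3 and 1.40 ± 0.30 at day 7 (2.64-fold), and at day 7 it was 1.02 to 1.77 when any 1 array was left out. Its day 0 level was at the negative control median, as for Esm1, so this fold may be compressed too. Apln lay between 4.43 and 4.98 on the 12 arrays, under the negative control median of each, so no level of the ligand can be given. Its day 7 and day 0 arrays overlapped.

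The day 7 arrays of Angpt2 and Tek lay below those of day 0, though neither gene passed the limma threshold used for calls below. Angpt2 measured 7.85, 8.34 and 8.05 at day 0, 8.09, 7.12 and 7.49 at day 1, 7.82, 7.62 and 7.21 at day 3, and 6.92, 7.21 and 7.65 at day 7. Its arrays of day 3 and of day 7 all lay below those of day 0, although day 3 replicate 1 was only just below. The change was -0.51 ± 0.28 at day 1, -0.53 ± 0.28 at day 3 and -0.82 ± 0.28 at day 7. Tek, its tyrosine kinase receptor Tie2, measured 9.20, 7.89 and 8.45 at day 0, 8.87, 8.44 and 8.62 at day 1, 7.55, 8.71 and 8.18 at day 3, and 7.11, 7.66 and 7.85 at day 7. The highest day 7 array was just under the lowest day 0 array. The Tek change was 0.13 ± 0.37 at day 1, -0.37 ± 0.37 at day 3 and -0.97 ± 0.37 at day 7.

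Kdr, the main signalling receptor for VEGF, overlapped with day 0 at each time. It ranged from 7.65 to 8.15 at day 0, 7.93 to 8.96 at day 1, 7.52 to 8.49 at day 3 and 7.66 to 8.70 at day 7. The Kdr change was 0.67 ± 0.36, 0.24 ± 0.36 and 0.30 ± 0.36 log2 units at days 1, 3 and 7.

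Among the surface and storage proteins, Plvap, which forms the diaphragms of caveolae and fenestrae, was near background and flat, and Vwf was lower at day 7. Plvap ranged from 6.46 to 6.64 at day 0, 6.37 to 6.86 at day 1, 6.33 to 6.55 at day 3 and 6.02 to 7.05 at day 7. Vwf, the haemostatic glycoprotein of the storage granules, measured 9.36, 8.76 and 9.05 at day 0, 9.35, 8.01 and 9.14 at day 1, 8.05, 9.41 and 8.86 at day 3, and 7.06, 7.00 and 8.28 at day 7. All day 7 arrays were below all day 0 arrays, with day 7 replicate 3 the nearest. The Vwf change at day 7 was -1.61 ± 0.48 (3.05-fold lower).

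The junction genes Pecam1 and Cdh5 had been listed as stable. Neither passed the limma threshold in any comparison, but each had 1 time at which its arrays did not overlap with day 0. Pecam1 measured 12.46, 11.28 and 11.89 at day 0, 12.30, 11.48 and 12.05 at day 1, 10.34, 11.90 and 11.57 at day 3, and 9.68, 10.47 and 11.15 at day 7. Its day 7 arrays all lay below the day 0 arrays, with a change of -1.44 ± 0.50 (2.72-fold lower), between -1.80 and -1.07 when any 1 array was left out. Cdh5 measured 10.90, 10.33 and 10.49 at day 0, 12.07, 11.76 and 11.41 at day 1, 10.26, 11.09 and 11.11 at day 3, and 10.15, 11.57 and 10.64 at day 7. Here it was day 1 that stood apart, above every day 0 array with a change of 1.17 ± 0.37 (2.25-fold), while day 7 overlapped with a change of 0.21 ± 0.37.

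Pecam1 and Cdh5 were also compared with each other. The difference Pecam1 minus Cdh5 averaged 1.30 ± 0.31 on day 0, then 0.20 ± 0.46 (day 1), 0.45 ± 0.37 (day 3) and -0.35 ± 0.82 (day 7; SD, n = 3). All 9 treated arrays lay below the day 0 range of 0.95 to 1.56. A value set against the mean of the pair therefore depends on which of them is used.

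Relative to that mean, the Esm1 change was 3.86 ± 0.70 at day 1, 4.38 ± 0.57 at day 3 and 1.87 ± 0.51 at day 7 (SE of the difference of group means), and all treated arrays stayed above all day 0 arrays. Aplnr gained 2.02 ± 0.60 on the pair at day 7, with no overlap. Apln, under background on all arrays, is left out here. At day 1, when Cdh5 was high, Angpt2 at -1.13 ± 0.41, Tek at -0.49 ± 0.14 and Vwf at -0.85 ± 0.32 lay below day 0 with no overlap. The high Cdh5 lowers every gene by this measure. The share of all genes without overlap was not computed for it, so nothing is read from these separations. Angpt2 overlapped at day 7, at -0.21 ± 0.46. Tek and Kdr overlapped at day 7, at -0.36 ± 0.20 for Tek and 0.91 ± 0.44 for Kdr. Vwf stayed below day 0 at day 7, at -0.99 ± 0.44.

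**Figure D2:**
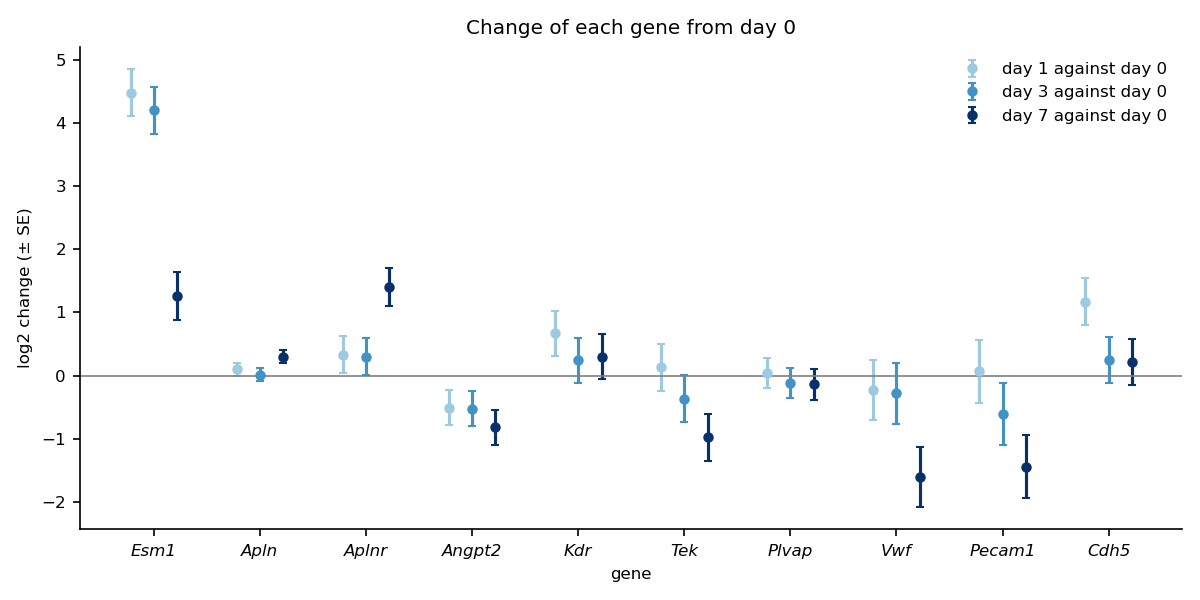
Log2 change from day 0 (vertical axis) of each of the 10 genes (horizontal axis) at days 1, 3 and 7, with the SE of the fit over 12 arrays as bars. Esm1 stands at 4.48 and 4.20 at days 1 and 3, and Aplnr is at 1.40 at day 7, when Vwf and Pecam1 are at -1.61 and -1.44.

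The limma threshold applied across all genes (Benjamini-Hochberg adjusted p under 0.05) was passed by few of the 9. At day 1 it was passed by Esm1, which was higher, where 3.62% of all genes tested were called. At day 3 it was again Esm1 that passed, where 11.8% were called. At day 7 Esm1 and Aplnr, both higher, and Vwf, lower, passed, where 25.2% were called. Esm1 alone passed, as lower, in day 7 against day 1 (4.79% called) and in day 7 against day 3 (0.267% called). None of the 9 passed in day 3 against day 1, where no gene was called (0%), although 1776 genes had an unadjusted p under 0.05. Groups without overlap were found for 3 of the 9 at day 1, 3 at day 3 and 6 at day 7, against 23.3%, 44.7% and 47.1% of all genes tested. Since the genes were chosen with these arrays in view, nothing is read from the counts. The median change of the 9 was 0.13 at day 1, -0.11 at day 3 and -0.14 at day 7, where all genes tested had medians of 0.01, 0.08 and 0.09.

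Over the 12 arrays the Pearson correlation with Esm1 was 0.56 for Cdh5, 0.35 for Kdr and -0.33 for Angpt2, and for Aplnr, Tek, Plvap, Vwf and Pecam1 it lay between -0.11 and 0.15. Apln, under background on all arrays, is left out. These points share the 4 time groups and the arrays' depth of signal.

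The genes whose signal was most like that of Esm1 over the 12 arrays were not genes of the endothelial lists. Of 21867 genes compared, 81 had a Pearson correlation with Esm1 of at least 0.9. The 10 highest among genes with ordinary names were Mmp3, Svep1, Lmnb1, Nek6, Gas7, Alox5, Ncapd2, Ppp1r14b, F13a1 and Ccne2, between 0.967 and 0.941. Mmp3, the matrix metalloproteinase stromelysin, averaged 9.02 ± 0.40 on day 0, then 12.19 ± 0.62 (day 1), 12.47 ± 0.23 (day 3) and 9.79 ± 0.30 (day 7; SD, n = 3). Svep1, a large extracellular adhesion protein, averaged 8.98 ± 0.40, 11.79 ± 0.39, 11.90 ± 0.25 and 9.85 ± 0.52 at the same times. F13a1, the transglutaminase chain of coagulation factor XIII that macrophages make, averaged 8.88 ± 0.50, 11.05 ± 0.33, 10.94 ± 0.42 and 9.03 ± 0.39. Lmnb1 (a nuclear lamin), Ncapd2 (a condensin subunit) and Ccne2 (cyclin E2) stayed below 7 in every group mean.

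**Figure D3:**
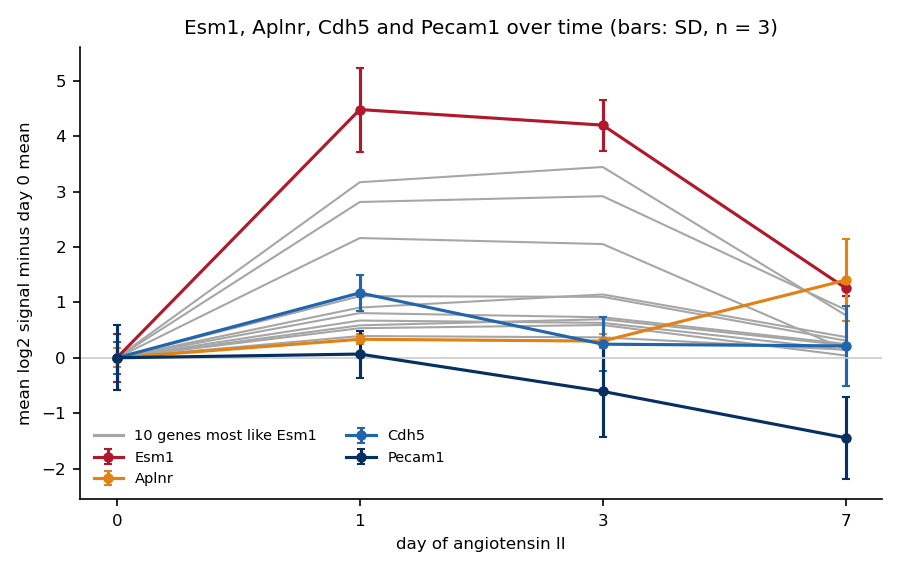
Mean log2 signal minus the day 0 mean (vertical axis) of Esm1, Aplnr, Cdh5 and Pecam1 by day of angiotensin II (horizontal axis), with the SD over 3 arrays, and of the 10 genes most like Esm1 in grey. Esm1 is 4.48 above day 0 at day 1 and 1.26 at day 7, Aplnr reaches 1.40 at day 7, and Pecam1 ends at -1.44.

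To set the 10 genes in their pathways, 90 further endothelial and angiogenic genes were examined, of which 86 had a transcript cluster and 84 were tested. At day 1, 5 rose and 0 fell, at day 3, 7 rose and 9 fell, and at day 7, 5 rose and 15 fell. That is 5.95%, 19% and 23.8% of the 84, beside 3.62%, 11.8% and 25.2% of all genes. At an unadjusted p under 0.05 there were 30, 29 and 33 of the 84 (35.7%, 34.5% and 39.3%), beside 16.4%, 28.2% and 43.4% of all genes. By either measure the share was above that of all genes at days 1 and 3 and below it at day 7. The lists were chosen with earlier results of these data known, so nothing is inferred from the shares. The median change of the 84 was 0.19, 0.15 and -0.07 at days 1, 3 and 7.

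Of the VEGF receptors and co-receptors, 2 of 3 tested rose at day 1, 2 at day 3 and 1 at day 7, and 0 fell. Flt1, the high-affinity VEGF receptor that also acts as a decoy, averaged 8.58 ± 0.14 on the day 1 arrays and 7.78 ± 0.10 on those of day 0 (SD, n = 3), a change of 0.80 ± 0.15 (limma, adjusted p = 0.026). At day 3 its change was 0.86 ± 0.15 (limma, adjusted p = 0.010). Flt4, the lymphatic VEGF receptor, rose by 0.33 ± 0.07 at day 1 and 0.30 ± 0.07 at day 3, and Nrp2, a co-receptor, by 0.93 ± 0.18 at day 7 (limma, adjusted p = 0.0084). Flt4 averaged 5.80 at day 0, under the mean negative control median of 5.99, so its small rises lie near background. Of 5 VEGF ligands, Pgf (placental growth factor) rose by 0.97 ± 0.21 at day 3 (limma, adjusted p = 0.019) and Vegfb fell by 0.67 ± 0.15 at day 7 (limma, adjusted p = 0.014). Vegfa, the principal ligand of Kdr, had changes of 0.24 ± 0.30, 0.51 ± 0.30 and 0.51 ± 0.30 and was not called at any of the 3 times.

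In the angiopoietin and Tie system, 0 of 5 tested genes passed at any of the 3 times, with median changes of 0.27, -0.12 and -0.52 and 1, 1 and 2 genes at an unadjusted p under 0.05. The largest change there was in Ptprb, the endothelial phosphatase that restrains Tie2, at -1.88 ± 0.63 at day 7 (limma, adjusted p = 0.054). Tie1, the partner receptor of Tek, changed by 0.61 ± 0.23, 0.28 ± 0.23 and -0.25 ± 0.23, and Angpt1 by 0.27 ± 0.24, -0.12 ± 0.24 and -0.09 ± 0.24, at days 1, 3 and 7.

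Of other genes of tip cells and sprouting, the class to which Esm1 belongs, 1 of 17 tested rose at day 1, 2 rose and 2 fell at day 3, and 1 rose and 3 fell at day 7. At an unadjusted p under 0.05 there were 6 higher and 1 lower at day 1, 2 higher and 3 lower at day 3, and 5 higher and 4 lower at day 7. The list's medians were 0.18, 0.12 and 0.11. Nid2, a basement membrane nidogen, rose by 0.43 ± 0.10 at day 1 and 0.42 ± 0.10 at day 3, and Col4a1, a basement membrane collagen, by 0.61 ± 0.17 at day 3. Cxcr4, the chemokine receptor of tip cells and many leukocytes, rose by 1.08 ± 0.28 at day 7 (limma, adjusted p = 0.026). Mcam, an adhesion molecule that smooth muscle also makes, fell by 2.33 ± 0.65 at day 3 and fell by 3.38 ± 0.65 at day 7. Lama4, a laminin chain, fell by 1.90 ± 0.33 at day 3 and fell by 1.66 ± 0.33 at day 7. The guidance receptor Unc5b fell by 0.41 ± 0.12 at day 7. With the control covariate described further on, several of these moved by more than 1.5 times: Mcam was at -0.90 at day 3 and -1.42 at day 7, Lama4 at -0.87 and Unc5b at -0.23 at day 7, all no longer called, while Col4a1 was at 1.01 at day 3 and Cxcr4 at 1.75 at day 7. Dll4, the Notch ligand of tip cells, was not called, with changes of 0.40 ± 0.13, 0.26 ± 0.13 and 0.26 ± 0.13.

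Of the wider list of pan-endothelial genes, 0 of 15 tested were called at day 1, with 4 higher at an unadjusted p under 0.05, and 1 fell at day 3 and 1 at day 7. Their changes ranged from -0.32 to 1.42 at day 1, -0.90 to 0.66 at day 3 and -1.22 to 0.31 at day 7, with medians of 0.15, -0.04 and -0.18. The gene that fell was Erg, an ETS transcription factor of endothelial identity, at 8.03 ± 0.25 at day 3 and 7.72 ± 0.30 at day 7, against 8.94 ± 0.14 at day 0 (SD, n = 3 each). Its change was -0.90 ± 0.16 at day 3 (limma, adjusted p = 0.012) and -1.22 ± 0.16 at day 7 (limma, adjusted p = 0.0020). With the control covariate Erg was at -0.68 at day 3 and -0.91 at day 7 and was called at neither. Emcn, a sialomucin of capillaries and veins, had the largest day 1 change of the list, 1.42 ± 0.48, followed by Eng, the TGF-beta co-receptor endoglin, at 1.08 ± 0.34, and neither was called (limma, adjusted p = 0.16 for Emcn and 0.13 for Eng).

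Among 10 genes of adhesion, storage granules and haemostasis, Edn1, the vasoconstrictor endothelin, rose by 1.46 ± 0.34 at day 1 (limma, adjusted p = 0.047) and fell by 1.38 ± 0.34 at day 7 (limma, adjusted p = 0.019). The Edn1 call was lost in 16 of 21 alternatives at day 1 and in 5 of 21 at day 7. The control covariate was among them both times, with Edn1 at 1.61 and -1.02. The other 9 genes of the list were not called against day 0. The list's medians were 0.49, 0.32 and -0.10, and 6, 2 and 1 of its genes had an unadjusted p under 0.05 at days 1, 3 and 7. Icam1, a leukocyte adhesion molecule, had changes of 0.67 ± 0.23, 0.61 ± 0.23 and -0.04 ± 0.23, and Nos3, the endothelial nitric oxide synthase, of -0.14 ± 0.18, 0.15 ± 0.18 and -0.09 ± 0.18.

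Genes of caveolae, the flask-shaped membrane pits that endothelium, smooth muscle and fat cells share, went down: 0 of 5 were called at day 1, with 3 at an unadjusted p under 0.05, and 3 fell at day 3 and 4 at day 7. The medians were -0.67, -1.08 and -1.08. Cav2 fell to 8.84 ± 0.06 at day 3 and 8.69 ± 0.27 at day 7, against 10.19 ± 0.15 at day 0 (SD, n = 3 each). Its change was -1.36 ± 0.18 at day 3 (limma, adjusted p = 0.0042) and -1.51 ± 0.18 at day 7 (limma, adjusted p = 0.0014). Cavin1, the coat protein, fell by 1.32 ± 0.28 at day 3 and fell by 1.77 ± 0.28 at day 7. Cav1 fell by 1.08 ± 0.25 at each of these days, and Cavin3 fell by 0.82 ± 0.22 at day 7. With the control covariate Cav2 stayed called, while Cav1 was at -0.53 at day 3 and -0.32 at day 7, Cavin1 at -0.77 at day 3 and -1.03 at day 7, and Cavin3 at -0.25 at day 7, none of them called.

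Of 7 genes of arterial endothelium, 0 were called at day 1 and 0 had an unadjusted p under 0.05 there, 1 fell at day 3 and 3 fell at day 7. Efnb2, the ephrin of arterial identity, fell by 1.89 ± 0.33 at day 3 and fell by 2.64 ± 0.33 at day 7 (limma, adjusted p = 0.0016). Bmx, a cytoplasmic kinase, fell by 1.90 ± 0.44 and Gja5, an arterial gap junction protein, fell by 1.66 ± 0.48 at day 7. Of 8 venous and capillary genes, Cd36, a fatty acid carrier that fat cells and macrophages also make, rose by 1.74 ± 0.49 and Car4, a carbonic anhydrase of capillaries, by 0.96 ± 0.16 at day 7, and 0 were called earlier. With the control covariate Efnb2 stayed called at day 7, but at day 3 it was at -1.80 and not called. Bmx at -2.06 ± 0.725, Gja5 at -2.17 ± 0.772, Cd36 at 2.76 ± 0.691 and Car4 at 0.78 ± 0.243 were then not called at day 7. For Bmx, Gja5 and Cd36 the change was larger than without the covariate and its SE wider. Of the 8 venous and capillary genes, 0 had an unadjusted p under 0.05 at day 1 and 2 at day 3.

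Of 4 lymphatic genes tested, Lyve1, a hyaluronan receptor that resident macrophages also make, rose by 2.05 ± 0.28 at day 1 (limma, adjusted p = 0.0093) and 2.29 ± 0.28 at day 3 (limma, adjusted p = 0.0033), and was not called at day 7, at -0.55 ± 0.28. Pdpn, podoplanin, which stromal cells also make, rose by 1.73 ± 0.39 at day 3. Prox1, the transcription factor that defines lymphatic endothelium, changed by 0.02 at day 1 and was called at none of the 3 times. Of 5 inhibitors of angiogenesis, the secreted protease Adamts1 fell by 1.56 ± 0.42 at day 3 and fell by 3.66 ± 0.42 at day 7 (limma, adjusted p = 0.0012), and Timp3 fell by 1.20 ± 0.39 at day 7. The Timp3 call was lost in 14 of 21 alternatives, and with the control covariate Timp3 was at -0.26 at day 7 and Adamts1 at -0.89 at day 3, both not called. Thbs2, a thrombospondin, fell by 0.99 ± 0.27 at day 3 (-0.57 and not called with the control covariate) and rose by 1.31 ± 0.27 at day 7 (limma, adjusted p = 0.010). Its relative Thbs1 had the largest change of the list at day 1, 3.57 ± 0.88, and was not called (limma, adjusted p = 0.060).

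**Figure D4:**
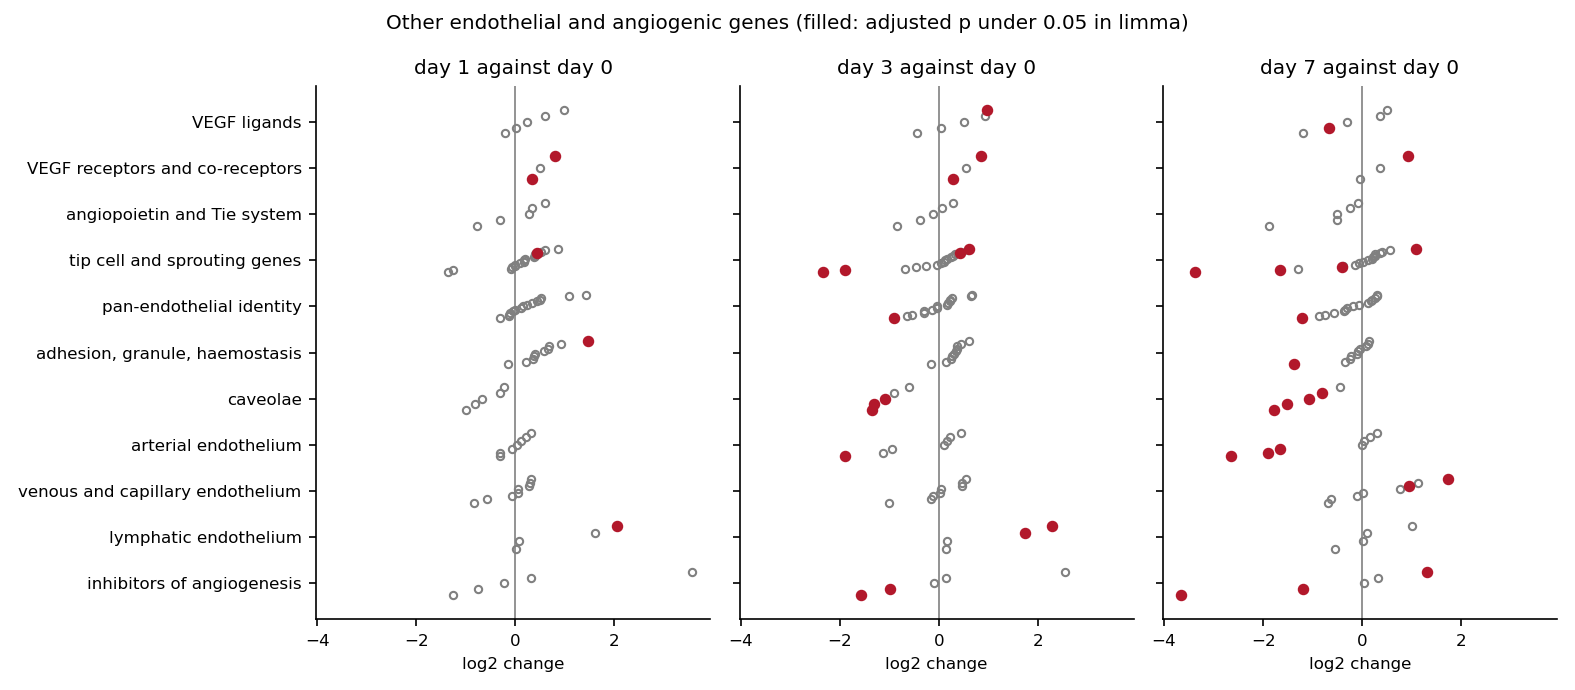
Log2 change from day 0 (horizontal axis) of the 84 further genes tested, by list (vertical axis), in 3 panels for days 1, 3 and 7. Each point is a gene and filled points passed an adjusted p under 0.05 in limma. The filled points number 5 at day 1, all to the right of 0, and 20 at day 7, of which 15 lie to the left.

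Many of these calls rested on the full set of arrays. At day 1 the Lyve1 call remained when any 1 array was left out, whereas those of Flt1, Flt4, Nid2 and Edn1 were lost without any 1 of the 3 day 0 arrays or without day 1 replicate 1 or 2. At day 3, of 16 calls 6 remained without any given day 0 array, and 10, 8 and 7 without day 3 replicates 1, 2 and 3. At day 7, of 20 calls 12, 13 and 16 remained without day 0 replicates 1, 2 and 3, and 14, 13 and 20 without day 7 replicates 1, 2 and 3. The sign was the same in every alternative that gave a value, up to 21, for each of the 54 calls of the 6 comparisons.

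Signal quality and the tissue's other cells moved with the time groups. Positive control features exceeded negative ones, by their medians, by 2.59 ± 0.05 on day 0 and by 2.25 ± 0.29 (day 1), 1.98 ± 0.14 (day 3) and 1.76 ± 0.49 (day 7; SD, n = 3) under infusion. At day 7 genes with a mean signal of 10 to 11, where Cdh5 lies, had a median change of -0.34, those at 11 to 12, with Pecam1, -0.37, and those at 8 to 9, with Tek and Vwf, -0.25. Dim genes went the other way: those at 6 to 7, with Aplnr and Plvap, had a median change of 0.07, and those at 5 to 6 of 0.25. With that control difference as a covariate, an alternative chosen after seeing the data, the day 7 change was 1.31 ± 0.63 for Esm1, 1.33 ± 0.49 for Aplnr, -0.99 ± 0.81 for Pecam1 and -1.41 ± 0.79 for Vwf, and 4 of 5, 4 of 16 and 5 of 20 of the further genes' calls remained at days 1, 3 and 7. Those that remained were Flt1, Flt4, Nid2 and Lyve1 at day 1, and Flt1, Col4a1, Cav2 and Lyve1 at day 3. At day 7 they were Cxcr4, whose day 0 mean was under the negative control median, and Cav2, Efnb2, Thbs2 and Adamts1. The control difference itself fell with the days, so it cannot be separated well from the time groups, and a lost call need not mean a smaller change. The mean log2 signal of 8 smooth muscle markers lay between 13.17 and 13.43 at day 0, 10.95 and 12.90 at day 1, 10.30 and 11.59 at day 3, and 8.02 and 10.47 at day 7, and 7 of the 8 fell at day 7. Myh11, the smooth muscle myosin heavy chain, fell by 6.40 ± 1.07. That of 8 macrophage markers lay between 7.49 and 7.90 at day 0, 9.20 and 9.97 at day 1, 9.17 and 9.86 at day 3, and 8.75 and 9.99 at day 7, and 6, 7 and 7 of the 8 rose at days 1, 3 and 7. Of 7 proliferation markers tested, 5, 7 and 5 rose. Of 6 pericyte markers 4 fell at day 7, when their mean lay between 8.42 and 9.37, against 10.32 and 10.72 at day 0. Of 5 fibroblast markers tested 2 rose at day 7, with a mean between 12.10 and 13.20 at day 0 and, in the same order of days, 13.29 and 13.74, 13.60 and 13.81, and 13.85 and 14.60. Of 6 skeletal and cardiac muscle markers 5 rose at day 7, when their mean lay between 6.78 and 7.15, against 5.75 and 5.94 at day 0, and Myh6, a cardiac myosin, rose by 2.56 ± 0.11. The mean of 14 endothelial markers, 5 of which are among the 10 genes, lay between 8.25 and 8.64 at day 0, 8.54 and 8.94 at day 1, 8.01 and 8.67 at day 3, and 7.68 and 8.14 at day 7. Platelet markers, of cells that also hold Vwf and Pecam1, lay between 5.51 and 5.61 at day 0, 5.65 and 5.98 at day 1, 5.92 and 6.14 at day 3, and 5.53 and 5.82 at day 7, with 3 or 4 of 5 under the negative control median in each group. Of 4 platelet markers tested, only the chemokine Pf4 was called, rising by 1.00 ± 0.18 at day 1 and by 1.04 ± 0.18 at day 3. At day 7, 0 of the 4 were called. The mean of 5 fat cell markers was 9.76 ± 0.19 at day 0 and 8.52 ± 0.73 at day 1. It was 8.89 ± 0.14 at day 3 and 9.53 ± 0.34 at day 7 (SD, n = 3). Of the 5, Ucp1 was called at day 1, at -5.45 ± 1.27 (limma, adjusted p = 0.049). Adipoq was called at day 7, at 1.17 ± 0.35 (limma, adjusted p = 0.039), and 0 were called at day 3. The part of fat cells in the changes of Cd36 and the caveolar genes was not tested. The part of control signal and of other cell types in the changes of the 10 genes was not tested.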

How the data were processed

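The authors deposited log2 signals per transcript cluster, which were used unchanged. Per the submitters' processing notes, Affymetrix Expression Console was the tool. Its version and the steps of background correction and normalization are not stated in the labels. The array design that the labels name is not that of the 72688 feature identifiers, so the table's own annotation was used, with symbols updated through RefSeq. Clusters with 1 symbol were kept (31258 of 65956), and for each gene that with the highest mean. Values end at a ceiling of 19.93, which none of the 10 genes reached.

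The 10 genes and all lists were chosen with earlier results of these data known. One limma fit (version 3.58.1, R 4.3.3) gave a mean per day over 12 arrays, with empirical Bayes moderation and Benjamini-Hochberg adjustment over 22066 genes (filter at the 40th percentile, 5.25). Apln came from the same fit without the filter. The number of arrays limits precision. Named genes are the 10, up to 4 called genes of each list and comparison with the largest change, the 10 genes most like Esm1, and marker genes with the highest or lowest change. Uncalled genes named beside them (Vegfa, Ptprb, Tie1, Angpt1, Dll4, Emcn, Eng, Icam1, Nos3, Prox1 and Thbs1) were chosen after their values were seen. As alternatives, values were quantile normalized or centred on array medians, and the fit was run with no filter, a 60th percentile filter, the mean of a gene's clusters, trend with robust estimation, a replicate block, the 6 arrays compared only, leaving out each array, and the control covariate.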

Additional observations from a re-analysis of the deposited data

Results flagged for a closer look

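Results were picked out here where the change from day 0 differed between 2 treated days, by a test of the difference itself in limma. Day 7 against day 1 gave 11 of the 84 further endothelial and angiogenic genes. Lower at day 7 than at day 1 were Edn1 at -2.84 ± 0.34, Lyve1 at -2.60 ± 0.28, Adamts1 at -2.40 ± 0.42, Efnb2 at -2.33 ± 0.33, Eng at -1.45 ± 0.34, Erg at -1.22 ± 0.16, Plaur at -0.99 ± 0.18, Cav2 at -0.84 ± 0.18 and Flt4 at -0.39 ± 0.07 log2 units. Higher were Thbs2 at 2.07 ± 0.27 and Car4 at 0.65 ± 0.16. The adjusted p of limma lay between 0.0059 (Lyve1) and 0.049 (Car4). Eng (endoglin) and Plaur, the urokinase receptor, were called in neither day 7 nor day 1 against day 0. Without day 1 replicate 2, 2 of the further genes were called in this comparison, and on the 6 arrays compared only, 0 were.

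Day 7 against day 3 gave 2 of the 84, Lyve1 at -2.84 ± 0.28 (limma, adjusted p = 0.0069) and Thbs2 at 2.30 ± 0.27 (limma, adjusted p = 0.015). Day 3 against day 1 gave 0 in limma, with 9 of the 84 at an unadjusted p under 0.05. Groups of 3 arrays are too small for an outlier test.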

How the results depend on the processing

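None of the 54 calls among the further genes changed direction under the alternatives run. Counts of called genes moved most. With arrays left out one at a time, all genes called numbered 101 (without day 1 replicate 2) to 1105 (without day 1 replicate 3) for day 1 against day 0, 702 (without day 3 replicate 3) to 3497 (without day 7 replicate 1) for day 3, 2837 (without day 0 replicate 1) to 7471 (without day 7 replicate 3) for day 7, 0 to 1 for day 3 against day 1, 43 (without day 1 replicate 2) to 3779 (without day 7 replicate 3) for day 7 against day 1, and 10 (without day 3 replicate 3) to 272 (without day 7 replicate 1) for day 7 against day 3. Of the 84 further genes, the counts were 1 to 6, 6 to 20, 12 to 26, 0 to 0, 2 to 24 and 1 to 4 in the same order.

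Quantile normalization gave 439 calls at day 1, 2095 for day 7 against day 1 and 115 for day 7 against day 3, and 3 and 22 of the further genes for day 1 against day 0 and day 7 against day 1. Median centring gave 439 and 2247 calls, and 1 and 27 further genes, for day 1 against day 0 and day 7 against day 1. Without the filter, 2 further genes were called at day 1. On the 6 arrays compared only, 209, 4523 and 2719 genes were called at days 1, 3 and 7, then 2 and 1 for day 7 against days 1 and 3, with 2 further genes at day 1 and 0 for day 7 against days 1 and 3. The control covariate gave 464 and 771 calls at days 3 and 7, 363 and 378 for day 7 against days 1 and 3, and 4, 6 and 5 further genes for days 3 and 7 against day 0 and day 7 against day 1. The causes were not tested.

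Scaling moved the balance. Of the calls against day 0, 439 of 799, 1018 of 2593 and 2666 of 5570 were higher as deposited, while under quantile normalization 62%, 29.8% and 23%, and under median centring 66.3%, 23.1% and 20.6%, were higher at days 1, 3 and 7. Centring placed the median change of all genes at -0.11 at day 3 and -0.19 at day 7, against 0.08 and 0.09 as deposited. Of the 54 further calls, 7 passed under all 21 alternatives: Lyve1 at days 1 and 3, Cav2 at days 3 and 7, and Efnb2, Thbs2 and Adamts1 at day 7. After group means were taken out, 7 of 18 correlations between same-numbered arrays exceeded 0.1 (median 0.038, range -0.51 to 0.66). Between differently numbered arrays of different days, 10 of 36 did (median -0.0145, range -0.65 to 0.46). Both sets spread widely, so they do not decide whether the replicate numbers pair the arrays. With replicate number as a block, 820, 2794 and 5781 genes were called at days 1, 3 and 7, and 4 of the 54 calls were lost.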
